A study of Mus musculus with 20 samples.

Results

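Obox1, Obox2, Obox3, Obox5 and Obox6 are genes of the mouse oocyte-specific homeobox family, and their transcript levels are described here in all 10 groups of a study of Chd4 knockout germ cells. The members were taken by gene symbol: all 5 were listed among the 53722 genes of the oocyte table and among the 55291 genes of the spermatogonia table. Both tables gave TPM (transcripts per 1000000, a level scaled by transcript length and library size) for each of 20 RNA-seq libraries, with 2 libraries in every group. Non-growing oocytes (NGO) were taken on postnatal days 1, 5 and 10 (P1, P5 and P10). On the last of these days growing oocytes (GO) were taken too. The other groups were undifferentiated spermatogonia from testis at P3.

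Each cell type and age had a knockout and a control group. At P1, P5 and P3 the knockouts (DcKO) were Chd4 f/- with Ddx4-Cre Tg/+ and the controls (Dctrl) were Chd4 f/+ with the same Cre, so these controls carry Cre and keep the + allele. At P10 both genotypes were Chd4 f/f, and the knockouts (GcKO) alone carried Gdf9-iCre Tg/+, so their controls (Gctrl) had no Cre. Ddx4-Cre acts throughout the germ line, whereas Gdf9-iCre acts in oocytes. All groups shared a mixed background, for which the labels name 129S1/Sv, FVB/NJ and C57BL/6. The labels did not say that replicates came from separate animals, so each p-value reflects variation among libraries that may be technical.

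The Obox genes encode homeodomain proteins, DNA-binding transcription factors whose homeodomain is related to that of Crx and Otx proteins. The family is found in rodents and lies in a cluster beside Crx. Transcripts of several members are stored in the oocyte, and OBOX proteins are known to take part in the activation of the embryonic genome after fertilization. Chd4 encodes a chromatin remodelling ATPase of the NuRD complex.

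In GENCODE M21 (GRCm38), all 5 members were protein-coding genes on chromosome 7. Obox2 (ENSMUSG00000074369.12) lay at chr7:15388721-15398545 on the plus strand and Obox1 (ENSMUSG00000054310.16) at chr7:15388948-15556866 on the same strand. The annotated span of Obox1 contained most of Obox2, but the exons of both genes shared only 59 bases, 3.1% of the exon bases of Obox1 and 3.6% of those of Obox2. Obox3 (ENSMUSG00000066772.12) lay on the minus strand at chr7:15479825-15639902, Obox5 (ENSMUSG00000074366.9) on the plus strand at chr7:15750131-15759800 and Obox6 (ENSMUSG00000041583.8) on the minus strand at chr7:15833241-15839678. Crx began 26269 bases beyond the end of Obox6. The tables listed 55 symbols that start with Obox, of which 53 were on chromosome 7, and 48 of the 50 that are not members were named as pseudogenes. The remaining 2 were Obox7 and Obox8.

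The members resembled each other closely in sequence. The coding sequences of Obox1 and Obox2 were identical at 98.5% of 453 aligned bases, and those of Obox1 and Obox5 at 95.6% of 612. Obox6 was the most distant, with 77.5% identity to Obox1. When each transcript was divided into windows of 150 bases, the length of a read, 68.6% of the windows of Obox1 and 67.3% of those of Obox2 occurred in no other gene, and the rest were shared between these 2 genes. All windows of Obox5 and Obox6 were unique, as were 91.5% of those of Obox3. How the authors treated reads that map to several genes was not given in the sources used here, so the split of reads between Obox1 and Obox2 is uncertain.

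The promoters are shown because Obox1, Obox2 and Obox5 changed together in the comparisons below, while Obox3 was at or near 0. The windows run from 250 bases before to 50 after the RefSeq start (GRCm38.p6): chr7:15547007-15547306 (plus strand) for Obox1, chr7:15388601-15388900 (plus) for Obox2, chr7:15750120-15750419 (plus) for Obox5 and chr7:15639728-15640027 (minus) for Obox3. Capitals mark TATATAA, the sequence of a TATA box.
Obox1: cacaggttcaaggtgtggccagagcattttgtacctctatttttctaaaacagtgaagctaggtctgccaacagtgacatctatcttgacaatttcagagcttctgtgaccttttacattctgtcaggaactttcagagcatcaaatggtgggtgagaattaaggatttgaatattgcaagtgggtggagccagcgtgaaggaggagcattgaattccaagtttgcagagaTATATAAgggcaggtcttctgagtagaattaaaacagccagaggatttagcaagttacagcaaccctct
Obox2: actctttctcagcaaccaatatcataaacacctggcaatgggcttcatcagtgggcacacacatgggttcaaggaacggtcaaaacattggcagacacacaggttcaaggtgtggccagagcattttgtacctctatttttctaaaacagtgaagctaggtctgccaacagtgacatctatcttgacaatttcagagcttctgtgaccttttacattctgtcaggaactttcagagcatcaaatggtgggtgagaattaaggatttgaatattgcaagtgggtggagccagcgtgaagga
Obox5: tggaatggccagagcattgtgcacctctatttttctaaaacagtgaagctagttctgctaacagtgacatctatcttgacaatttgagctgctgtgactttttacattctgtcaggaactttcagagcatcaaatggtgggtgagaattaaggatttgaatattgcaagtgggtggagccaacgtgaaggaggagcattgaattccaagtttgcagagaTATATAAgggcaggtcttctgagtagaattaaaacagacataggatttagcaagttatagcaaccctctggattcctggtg
Obox3: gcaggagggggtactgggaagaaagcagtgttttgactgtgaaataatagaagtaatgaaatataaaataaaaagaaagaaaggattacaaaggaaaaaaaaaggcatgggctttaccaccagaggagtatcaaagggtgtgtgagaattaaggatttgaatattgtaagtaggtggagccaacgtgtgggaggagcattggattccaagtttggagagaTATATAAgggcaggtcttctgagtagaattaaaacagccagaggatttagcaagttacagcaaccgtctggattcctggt

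TATATAA, searched on both strands, lay 19 bases before the listed start of Obox1, 30 before that of Obox3 and 31 before that of Obox5. It occurred in 3.46% of 27025 promoter windows of the same length. The Obox2 window did not hold these letters, and its aligned part matched Obox1 at 203 of 203 bases. That window ended before the stretch that holds TATATAA in Obox1, so the corresponding part of Obox2 was not examined. Within a core of 127 bases around the motif (80 before it and 40 after), Obox1 and Obox5 were 97.6% identical, and Obox3 was 93.7% identical to Obox1. Upstream of that core Obox1 and Obox5 remained 93.5% identical, but Obox1 and Obox3 only 48.8%. The E-box pattern CANNTG, present in 72.1% of all promoter windows, occurred as CAAATG and CAAGTG in Obox1, Obox2 and Obox5, also as CACCTG and CACATG in Obox2, and not at all in Obox3. Obox7 had the same core as Obox5, with 127 of 127 bases identical. GGATTA, the core of sequences that Crx- and Otx-type homeodomains bind, was found only in the Obox3 window among these genes, and in 7.16% of all windows. TAATTG (8.15% of windows) and TAATTA (5.31%) were found in none of them. These matches describe letters and were not tested for binding.

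Depth recovered from the low values (see the processing notes) was 15.33 to 30.07 M reads per library (1 M is 1000000). All 8 oocyte markers reached TPM 1 in each of the 16 oocyte libraries, and all 8 markers of undifferentiated spermatogonia did so in the 4 spermatogonia libraries. Markers of other cells were found as well. In spermatogonia 8 granulosa and Sertoli markers summed to 90.88 and 36.73 TPM in controls and 61.6 and 98.04 in knockouts. There 6 stromal markers summed to 7.7 and 11.42 against 34.02 and 38.18 TPM. In P5 NGO the granulosa and Sertoli sums were 7.52 and 4.08 TPM in controls and 23.09 and 59.31 in knockouts. Chd4 was 24.65 and 31.24 TPM in P1 controls against 4.319 and 1.9 in knockouts, and 14.48 and 17.91 against 8.281 and 4.94 at P5. In spermatogonia it was 248.6 and 286.4 against 40.23 and 51.72 TPM. At P10 Chd4 was low in controls too: 1.632 and 1.854 against 1.336 and 0.2471 TPM in NGO, and 1.559 and 2.956 against 0.6313 and 1.538 in GO. The groups did not overlap in any of the 5 pairs, though in GO only by 1.559 against 1.538 TPM. With limma the fall passed an adjusted p of 0.05 only at P1 (0.0136). It did not pass at P5 (0.351), in P10 NGO (0.615), in GO (0.488) or in spermatogonia (0.0671). These TPM cover the whole gene, so transcripts that lack only the deleted exons would still be counted.

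Obox1, Obox2 and Obox5 were transcripts of P10 oocytes. Obox1 was above 0 in 8 of 20 libraries, which were the 8 P10 libraries. Obox2 was above 0 in these 8 and 1 P5 library, and Obox5 in these 8 and 2 P5 libraries. Obox3 was above 0 in 4 libraries and Obox6 in 1, each time with a value that corresponds to 1 read. The plot of levels by library shows this pattern.

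**Figure D1:**
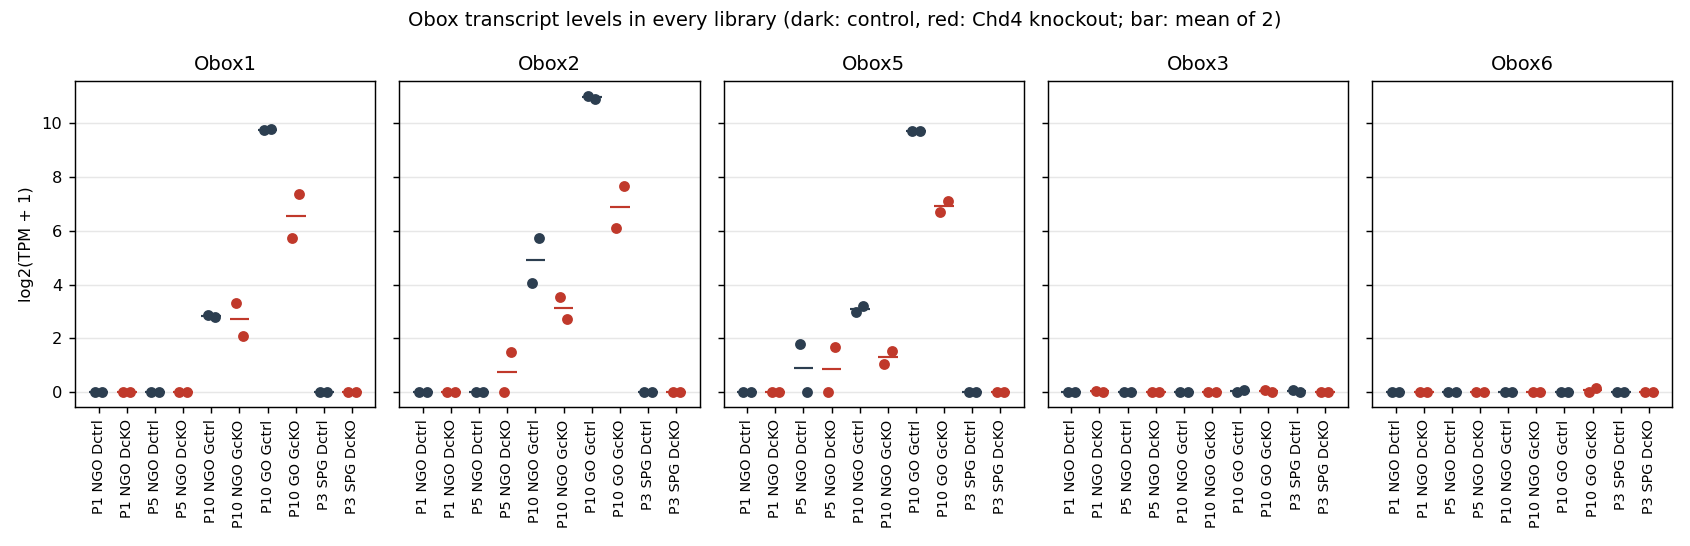
Levels of the 5 Obox genes, as log2(TPM + 1), in each of the 20 libraries by group, with controls dark, knockouts red and a bar at the mean of the 2 libraries. Obox1, Obox2 and Obox5 reached 841 to 2086 TPM in control growing oocytes and were lower in knockout growing oocytes, while Obox3 reached at most 0.0524 and Obox6 at most 0.1147 TPM.

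Obox3 reached at most 0.0524 TPM, in a control spermatogonia library. Its other values were 0.035 in a P1 knockout, 0.042 in a control GO and 0.0417 in a knockout GO library. Obox6 was 0.1147 TPM in the second knockout GO library and listed at 0 in the other 19. A value of 0 still allows 3 reads, which is 0.0847 to 0.173 TPM for Obox3 and 0.201 to 0.411 TPM for Obox6, depending on the library. This limit covers counting error only. Neither gene reached the minimum for testing, a TPM of 1 or more in 2 or more libraries, so no fold change was fitted for them. The annotated span of Obox3 overlaps that of Obox1 on the other strand, without any shared exon base.

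In spermatogonia, Obox1, Obox2, Obox5 and Obox6 were listed at 0 in all 4 libraries and Obox3 in 3 of them. No member could be tested there, by limma on log2 values or by voom on recovered reads, and so no effect of Chd4 knockout on Obox levels could be measured in these cells.

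At P1 all members were listed at 0 in control and knockout oocytes, apart from the single Obox3 read. For Obox1 a 0 allowed at most 0.142 to 0.291 TPM over the 20 libraries, for Obox2 0.164 to 0.336 and for Obox5 0.127 to 0.259. At P5 the first signal appeared, and it was uneven. Obox5 was 2.433 TPM (47 reads) in control replicate 1 and 0 in control replicate 2, and it was 0 in knockout replicate 1 and 2.213 TPM (42 reads) in knockout replicate 2. Obox2 was 1.778 TPM (26 reads) in knockout replicate 2 and 0 in the other 3 libraries, and Obox1 was 0 in all 4. Obox5 was thus at a similar level in 1 library of each genotype and at 0 in the other.

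Of the 3 members tested, 0 passed in the knockout comparison at P1 (background 1.7% of 20470 genes called), at P5 (1.36%), between P5 and P1 in controls (4.7%) or knockouts (5.13%), or in the difference of the knockout effects between the ages (0.313%). Without adjustment 0 members had a limma p under 0.05 in any of these, and voom on recovered reads called 0. Where both groups were at 0, as for all 3 genes at P1 and for Obox1 at P5, the difference was 0 by construction. Those genes entered the fit only through other libraries. No effect of Chd4 knockout on them could be measured there, and their missing calls are no evidence of an unchanged level. At P5 the log2 difference between knockout and control, on the log2(TPM + 1) scale used throughout, was -0.05 for Obox5 (95% interval -1.4 to 1.3, limma adjusted p = 1.0). For Obox2 it was 0.74 (-0.7 to 2.17, adjusted p = 0.774). The intervals include changes of more than 2-fold in either direction for Obox5.

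In P10 control NGO all 3 genes were present in both libraries. Obox1 was 6.274 and 5.869 TPM, Obox2 15.82 and 51.77 TPM, and Obox5 6.916 and 8.233 TPM. These libraries lay above every P1 and P5 library for each gene. Obox2 was the most variable, since its second library had over 3 times the level of the first.

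Against P5 control NGO, all 3 tested members were higher in P10 control NGO (background 22.7% of genes called, and 5.54% called higher). The log2 difference was 2.82 for Obox1 (SE 0.533, limma adjusted p = 0.00275), 4.90 for Obox2 (SE 0.659, adjusted p = 0.000304) and 2.21 for Obox5 (SE 0.619, adjusted p = 0.0234). The P10 control mean over the 3 reads that a 0 allows per library was 34.7-fold for Obox1 and 167-fold for Obox2. These values are no strict lower bounds, since the limit covers counting error only. Obox2 in P10 control replicate 1, at 15.82 TPM, also lay below the mean of 33.8 TPM. The mean of Obox5 was 6.22-fold higher, but this call rested on single libraries. Without P5 control replicate 2 its log2 difference was 1.32 (adjusted p = 0.189), without P10 control replicate 1 it was 2.32 (0.0638), and without P10 control replicate 2 it was 2.09 (0.0974). Over the alternatives its adjusted p ranged from 0.00203 to 0.189. The controls differ in Chd4 genotype and in Cre as well as in age, so these cannot be told apart. The median log2 difference of all genes was -0.47 in this comparison, -0.2 with median-ratio scaling and 0.03 with quantile normalization. Accordingly 24.5% of called genes were higher as deposited, 43.6% with median-ratio scaling and 51.4% with quantile normalization. The rises of Obox1 and Obox2 passed under each of the 14 alternatives, these scalings included.

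From NGO to GO, the growth step at P10, the Obox transcripts became some of the most abundant of the control oocyte. In control GO, Obox2 was 2086 and 1923 TPM (26092 and 23629 reads), Obox1 was 868.9 and 874.8 TPM (12542 and 12411 reads) and Obox5 was 841.0 and 851.8 TPM (13648 and 13586 reads). The replicates were close together and far above both NGO libraries. Among 53722 genes, only 55 had a higher mean TPM than Obox2, 156 a higher one than Obox1 and 161 a higher one than Obox5. In control NGO those numbers were 3106, 7174 and 6568.

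All 3 members passed the test as higher in control GO (background 24.3% of genes called, and 11.0% called higher). Obox1 was 144-fold higher by the means, with a log2 difference of 6.95 (SE 0.533, 95% interval 5.79 to 8.11, limma adjusted p = 3.63e-06). Obox5 was 112-fold higher, with 6.63 (SE 0.619, 5.28 to 7.98, adjusted p = 1.39e-05). Obox2, which started from a higher NGO level, was 59.3-fold higher, with 6.07 (SE 0.659, 4.63 to 7.51, adjusted p = 3.84e-05). Of 20470 genes tested, 0 had a larger log2 rise than Obox1, 10 had a larger one than Obox5 and 57 a larger one than Obox2. The 3 intervals overlap widely, so no order among the rises can be read from them. Oocyte libraries hold the RNA of many cells, and here and below fewer cells of a type and less RNA per cell cannot be told apart. Of the called genes 45.4% were higher as deposited and 63.2% with median-ratio scaling, and the 3 members kept their calls under all 16 alternatives.

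In knockout NGO at P10, Obox1 was 8.929 and 3.259 TPM, Obox2 was 10.69 and 5.567 TPM and Obox5 was 1.042 and 1.913 TPM. The knockout libraries of Obox1 lay on both sides of the controls. Those of Obox2 and Obox5 lay below both controls, but the share of all genes that did so was not computed. Of the 3 members 0 passed the test between knockout and control NGO (background 1.92%), although 2 of them, Obox2 and Obox5, had an unadjusted limma p under 0.05, and voom on recovered reads called 0. The log2 difference was -0.12 for Obox1 (95% interval -1.28 to 1.04, limma adjusted p = 1.0). For Obox2 it was -1.77 (-3.2 to -0.33, adjusted p = 0.212), and for Obox5 -1.81 (-3.16 to -0.46, adjusted p = 0.173). A fall of Obox2 and Obox5 in non-growing oocytes was therefore not established.

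In knockout GO all 3 genes were far below the controls. Obox2 was 68.15 and 203.4 TPM (842 and 2171 reads) against 2086 and 1923 in the controls. Obox1 was 52.8 and 162.6 TPM (753 and 2004 reads) against 868.9 and 874.8. Obox5 was 102.7 and 138.3 TPM (1647 and 1916 reads) against 841.0 and 851.8. The groups did not overlap for any of the 3 genes, but the share of all genes without overlap was not computed. With 2 libraries against 2, full separation alone gives p = 0.333 in an exact two-sided permutation test. The knockout replicates spread more than the controls, and replicate 1 was the lower for each gene.

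Obox1, Obox2 and Obox5 all fell in knockout GO (background 13.8% of genes called, and 4.69% called lower). Obox2 fell most by its mean, from 2005 to 135.8 TPM or 14.8-fold, with a log2 difference of -4.08 (SE 0.659, 95% interval -5.51 to -2.64, limma adjusted p = 0.00142). Obox1 fell from 871.8 to 107.7 TPM or 8.09-fold, with -3.22 (SE 0.533, -4.38 to -2.06, adjusted p = 0.00167). Obox5 fell from 846.4 to 120.5 TPM or 7.02-fold, with -2.82 (SE 0.619, -4.17 to -1.47, adjusted p = 0.00937). All oocyte groups share the estimate of spread, and the P1 and P5 groups listed at 0 added no variation to it. The SEs, intervals and limma p-values of these genes in every P10 comparison may therefore be too small. Among 20470 genes, 58 had a lower log2 difference than Obox2, 177 a lower one than Obox1 and 291 a lower one than Obox5. In knockout GO, 1113 genes had a higher mean TPM than Obox2, where 55 had in the controls. The plot of the log2 differences sets these falls beside the other P10 comparisons.

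**Figure D2:**
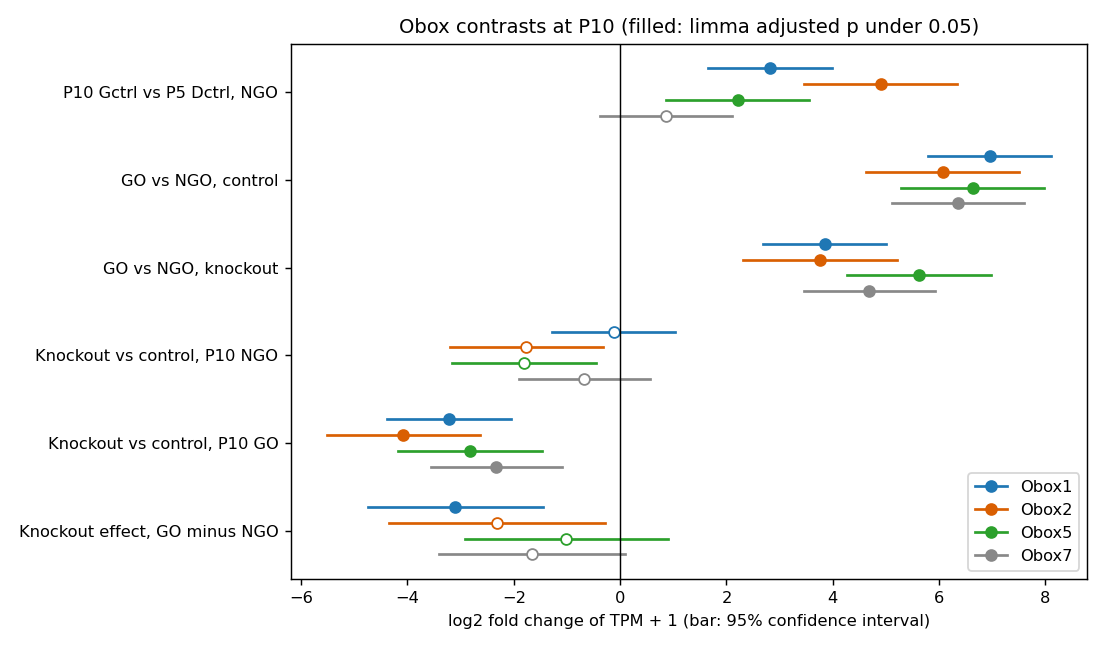
Fitted log2 differences of TPM + 1 with 95% confidence intervals for Obox1, Obox2, Obox5 and the related Obox7 in 6 comparisons, with filled points where the limma adjusted p was under 0.05. All 4 genes rose from NGO to GO in controls and knockouts and fell in knockout GO, for example Obox2 by -4.08, while none passed between knockout and control NGO.

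The falls of Obox1 and Obox2 passed under all 16 alternatives, with log2 differences of -4.02 to -2.42 and -4.86 to -3.29. That of Obox5 was less firm: its log2 difference ranged from -3.11 to -2.6 but its adjusted p from 0.00142 to 0.238. Its call was lost without control replicate 1 (adjusted p = 0.0558), without control replicate 2 (0.0575), without knockout replicate 1 (0.0549) and with a pseudocount of 0.1 TPM (0.238). Called genes in this comparison were 66.0% higher as deposited, 53.1% with median-ratio scaling and 52.6% with quantile normalization. All 3 members still passed as lower with both scalings.

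Markers of other cells differed between control and knockout GO, most in endothelial markers of knockout replicate 1, and their part in the result was not tested. The summed TPM of 8 granulosa and Sertoli markers was 2.19 and 0.5 in controls and 8.13 and 10.45 in knockouts, with Fshr at 0 in all 4 libraries. Foxl2 and Wt1 were at 0 in both controls and at 4.688 and 4.903 TPM in knockout replicate 2, with 0.04091 and 0.08601 TPM in replicate 1. Kitl was 7.392 and 0.7826 TPM in knockouts against 1.692 and 0.2719 in controls. The 4 endothelial markers summed to 6.64 and 2.96 in controls and to 102.32 and 2.78 in knockouts. Pecam1 gave 98.59 of the 102.32, and Cdh5 was at 0 in all 4. The 6 stromal markers summed to 0.06 and 0.0 against 2.55 and 0.2, and the 5 blood and immune markers to 0.0 and 0.0 against 1.94 and 0.0, with Ptprc at 0 throughout. Of the 8 oocyte markers 0 passed as lower in knockout GO and 3 (Dppa3, Figla and Nobox) passed as higher. Over all genes 4.69% were called lower and 9.12% higher, so 0 of 8 lower does not set the markers apart. Dazl, a germ cell RNA-binding protein, was 352.3 and 213.4 TPM in knockouts against 437.5 and 454.7 in controls (log2 -0.70, limma adjusted p = 0.0682). Ddx4, a germ cell RNA helicase, was 108.8 and 199.2 against 185.7 and 185.5 TPM (log2 -0.33, adjusted p = 0.594). Gdf9, a growth factor of the oocyte, was 750.2 and 733.5 TPM in knockout GO against 720.3 and 656.0 in controls. Zp3, a zona pellucida protein, was 2131 and 2177 against 1376 and 1360, and Ooep, of the subcortical maternal complex, was 1767 and 1690 against 1729 and 1588.

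**Figure D3:**
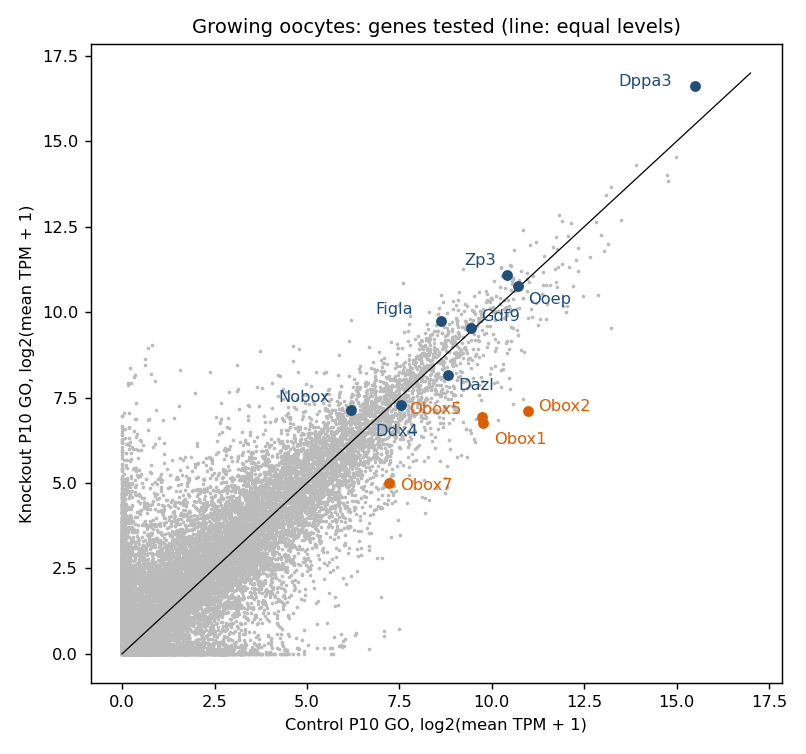
Mean level of the 20470 tested genes in control (horizontal axis) and knockout (vertical axis) growing oocytes at P10, each as log2(mean TPM + 1), with Obox genes in orange, the 8 oocyte markers in blue and a line of equal levels. The Obox genes lie below the line, Obox2 at 2005 TPM in controls and 135.8 in knockouts, while Gdf9 and Ooep lie on it, Dppa3, Figla, Nobox and Zp3 above it, and Dazl and Ddx4 less far below it, Dazl at 446.1 and 282.9 TPM.

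The rise from NGO to GO was present in the knockout libraries too, where Chd4 transcript was still measured (above). In them all 3 members were higher in GO than in NGO (background 20.4% called, and 11.5% called higher). Obox5 was 81.5-fold higher by the means, with a log2 difference of 5.62 (limma adjusted p = 6.2e-05). Obox1 was 17.7-fold higher, with 3.85 (adjusted p = 0.000317), and Obox2 16.7-fold higher, with 3.76 (adjusted p = 0.00159). These calls held under all 16 alternatives. The comparison shares its GO libraries with the knockout comparison in GO, so the values are not independent of it.

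The test of whether the knockout effect differed between GO and NGO gave a split result (background 7.46% called, and 2.62% called lower). Obox1 passed, with a difference of -3.10 on the log2 scale (SE 0.753, 95% interval -4.74 to -1.45, limma adjusted p = 0.0287). Obox2 did not, with -2.31 (-4.34 to -0.28, adjusted p = 0.173), nor did Obox5, with -1.01 (-2.92 to 0.9, adjusted p = 0.584). An effect confined to growing oocytes was thus not shown for Obox2 or Obox5. The call of Obox1 was lost under 11 of 20 alternatives, with adjusted p from 0.00901 to 0.142. It was 0.107 when the 8 P10 libraries were fitted alone, where the P1 and P5 groups listed at 0 no longer entered the estimate of spread. For this test that fit and the fit of only the groups compared are the same and count as 2 of the 11. With a replicate block added to it 0 of 15197 genes were called. Over all genes 990 calls were higher and 537 lower as deposited, 870 and 870 with median-ratio scaling, and 998 and 894 with quantile normalization.

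Over the groups, mean levels of Obox1, Obox2 and Obox5 were highest in control GO, then in knockout GO, then in the 2 NGO groups at P10, and lowest at P5 and P1, where Obox1 was at 0 throughout. Within NGO at P10 control exceeded knockout for Obox2 and Obox5, while Obox1 had 6.072 TPM in controls and 6.094 in knockouts. The test did not separate these 2 groups for any of the 3 genes. For Obox5, the P5 libraries at 2.433 and 2.213 TPM lay above both knockout NGO libraries at P10, so these groups overlapped.

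The make-up of the Obox signal also varied among the GO libraries, but a difference between the genotypes was not established. In the sum of Obox1, Obox2, Obox5 and Obox7, which was 3965.55 and 3777.77 TPM in controls and 267.23 and 522.98 TPM in knockouts, Obox2 held 52.62% and 50.89% in controls and 25.5% and 38.89% in knockouts. The share of Obox5 was 21.21% and 22.55% in controls against 38.44% and 26.45% in knockouts. The log2 ratio of Obox1 to Obox2 was -1.26 and -1.14 in controls and -0.37 and -0.32 in knockouts, and that of Obox2 to Obox5 was 1.31 and 1.17 against -0.59 and 0.56. Neither ratio overlapped between the genotypes, but with 2 libraries against 2 an exact two-sided permutation test cannot go below p = 0.333, the value both gave. The ratio of Obox1 to Obox5 overlapped, at 0.05 and 0.04 against -0.96 and 0.23. In all, 6 ratios were computed. That of Obox2 to Obox7 did not overlap either, while those of Obox1 to Obox7 and Obox5 to Obox7 did. The knockout libraries also differed from each other, with an Obox7 share of 16.31% and 3.57% against 4.27% and 3.4% in controls. A ratio of Obox1 to Obox2 also depends on how reads shared by the 2 genes were assigned.

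**Figure D4:**
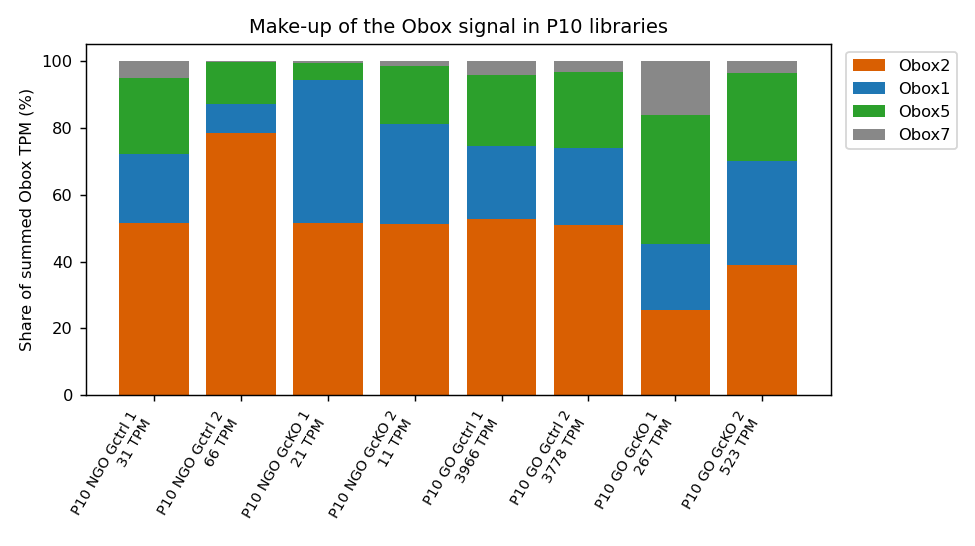
Share in percent of the summed TPM of Obox1, Obox2, Obox5 and Obox7 that each gene held in the 8 P10 libraries, with the sum under each bar. Obox2 held 50.89% to 52.62% in control growing oocytes and 25.5% to 38.89% in knockout growing oocytes.

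Of the Obox genes outside the 5 members, Obox7 also passed as higher in GO than in NGO and as lower in knockout GO, at lower levels. It was 1.618 and 0.2677 TPM in control NGO and 169.2 and 128.5 TPM in control GO, a log2 difference of 6.35 (limma adjusted p = 1.02e-05). In knockout GO it was 43.57 and 18.67 TPM, 4.78-fold below the controls by the means, with a log2 difference of -2.33 (adjusted p = 0.0166). Whether the Obox7 calls held under the alternatives is not reported here. At P5 Obox7 was 2.053 and 0.1405 TPM in knockouts and 0 in both controls. Unlike the 3 members it did not pass between P10 and P5 control NGO (log2 0.87, adjusted p = 0.316), and its P5 knockout mean of 1.097 TPM was above its P10 control NGO mean of 0.9427. Of the 50 other Obox symbols, 35 were listed at 0 in all 20 libraries, 6 reached TPM 1 in any library and 2 reached TPM 5. Those 2 were Obox7 and the pseudogene Obox3-ps7, which was 19.56 TPM (52 reads) in knockout GO replicate 2 and at most 1.24 TPM (3 reads) in any other library. Obox3-ps8 was 3.15 and 1.95 TPM in control GO against 0.42 and 0 in knockouts. Obox4-ps27 at 3.42 TPM and Obox4-ps17 at 1.52 TPM appeared in knockout GO replicate 1 only.

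Genes most like the members were sought by the Pearson correlation of log2(TPM + 1) over the 16 oocyte libraries. These values rank genes only, since the 4 GO libraries stand apart from the rest and set most of each correlation. The knockout GO libraries entered it, so the levels of these genes in knockout GO are a description, with no test. Obox1 and Obox2 had r = 0.981 with each other, and Obox5 had 0.967 with Obox1 and 0.962 with Obox2. Outside the family, Obox1 was most like Nlrp9c (0.992), Trim61 (0.986), Fbxw23 (0.977), Fbxw19 (0.975) and Zcchc10 (0.973). The genes for Obox2 were Znrf2 (0.977), Fbxw19 (0.976), Nlrp9c (0.975), Fbxw22 (0.972) and Trim61 (0.968), and for Obox5 they were Nlrp9c (0.984), Cmtm2a (0.983), Tcstv1 (0.981), Pak7 (0.979) and Zfp980 (0.978). Nlrp9c, an NLR family gene, was on all 3 lists, with mean levels of 5.803 TPM in control NGO at P10, 676.2 in control GO and 92.66 in knockout GO. Zfp980, a zinc finger gene, was 124.3 TPM in control and 18.22 in knockout GO. Fbxw22, an F-box gene, was 2809 in control and 891.8 TPM in knockout GO.

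Other genes of the oocyte programme were read from 4 lists. Of 12 tested oocyte transcription factors 5 rose in knockout GO and 0 fell, where 9.12% of all genes were called higher and 4.69% lower, with a median log2 difference of 1.06 where that of all 20470 genes was 0.06. The 5 became 3 with median-ratio scaling and 2 without control replicate 1. Sohlh1, a bHLH factor of early oocytes, was 22.53 and 45.22 TPM against 1.123 and 0.9351 in controls (log2 4.02, limma adjusted p = 4.43e-06). Figla, which activates zona pellucida genes, was 964.5 and 752.9 against 316.2 and 468.1 TPM (log2 1.15, adjusted p = 0.00441). Sub1 was 6769 and 6242 against 3783 and 3789 TPM (log2 0.78, adjusted p = 8.11e-06). These genes moved opposite to the Obox genes in the same libraries. From NGO to GO in controls 5 of the 12 fell and 1 rose (median -0.68), where 13.2% of all genes were called lower and 11.0% higher. With median-ratio scaling 3 fell, and Sub1 turned from -0.28 to 0.25. Sohlh1 went from 95.2 and 89.18 TPM in control NGO to the levels in control GO given above (log2 -5.52, adjusted p = 4.21e-07).

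Of 20 maternal effect genes, whose products serve the egg and early embryo, 3 rose and 2 fell in knockout GO (median 0.16, and -0.13 with median-ratio scaling), where 9.12% and 4.69% of all genes did. The rises included Dppa3, at 94340 and 105500 TPM against 45240 and 46800 (log2 1.12, limma adjusted p = 4.43e-06), and Padi6, at 1590 and 1497 against 513.2 and 585.1 TPM (log2 1.49, adjusted p = 0.00772). Oosp1, an oocyte-secreted protein, fell from 568.1 and 726.3 to 206.8 and 231.0 TPM (log2 -1.55, adjusted p = 0.018). The other gene that fell was Bmp15, and the third that rose was Nlrp5, both named after their values were seen. Leaving out any of the 4 GO libraries left 0 falls. From NGO to GO in controls 15 of these 20 genes rose and 1 fell (median 1.89), against 11.0% and 13.2% of all genes. The 1 that fell was Dppa3 (log2 -0.39), which turned to 0.14 with median-ratio scaling, where 18 rose and 0 fell. An example of a rise is Oosp1, from 7.599 and 6.031 TPM (log2 6.37, adjusted p = 8.6e-07).

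Of 12 tested genes known from the 2-cell embryo, where OBOX proteins act, 10 rose in knockout GO and 0 fell (median 5.14), where 9.12% of all genes were called higher. Usp17lb, of the Usp17-like deubiquitinases, was 114.7 and 147.2 TPM against 0.08432 and 0 (log2 6.97, limma adjusted p = 9.02e-07). Usp17la was 21.82 and 28.21 TPM and Zfp352 19.78 and 46.61 TPM, and both were listed at 0 in both controls. Several genes of this list are near-identical copies whose reads can be split between them. Only 8 of the 12 could be tested when either knockout GO library was left out. The rest, all counted among the 10, passed the minimum for testing only through the 2 knockout GO libraries, so their rise is no test. They include genes given above as examples, and the median of 5.14 includes them too. The count of 10 of 12 can therefore not be set against the share of all genes. Over the 8, the median log2 difference was 5.55 without knockout replicate 1 and 5.05 without knockout replicate 2.

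Of 12 listed homeobox genes related to Crx or of the same class, 6 could be tested, and 0 passed in knockout GO by limma and 0 had an unadjusted p under 0.05, while voom on recovered reads called 1, Dmbx1. Crx itself, the neighbour of the cluster, was at most 0.03562 TPM in any oocyte library and Otx2 was listed at 0 in all. Noto, another homeobox gene with a high level in oocytes, was 250.1 and 272.7 TPM in knockout GO against 338.3 and 300.4 in controls (log2 -0.29, limma adjusted p = 0.641).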

How the data were processed

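Per the labels, RNA was made into libraries with a low-input kit and sequenced as paired reads. Per the submitters' processing notes, Trimmomatic 0.39, STAR 2.5.4b, SAMtools 1.9 and featureCounts 2.0.1 were used with GRCm38. The annotation, the treatment of multi-mapping reads and strandedness were not given in the sources used here. The authors deposited TPM per gene, in a table of 16 oocyte libraries and another of 4 spermatogonia libraries. Reads and depth were recovered from TPM and GENCODE M21 exon lengths: values under 20 reads were whole, within 0.05, in 98.65% to 99.19% of cases.

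Contrasts of log2(TPM + 1) were fitted by limma 3.58.1 in R 4.3.3 (eBayes, trend on). Tests were two-sided, and p-values were adjusted by Benjamini-Hochberg across all tested genes and called under 0.05. A gene entered a fit when 2 or more of its libraries reached TPM 1, which left 20470 genes in oocytes and 18671 in spermatogonia. The 16 oocyte libraries shared 1 estimate of spread. This scale understates fold changes of low genes. Promoter and coding sequences were aligned with MAFFT 7.526. The limma script was tested on simulated data. RefSeq promoter windows matched Obox1, Obox2, Obox3, Obox5 and Obox7.

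The members and gene lists were chosen with earlier results of these data known. The rule named the 5 members, the other Obox genes, Chd4, up to 3 genes with the smallest p of each list, and the 5 genes most correlated with each member, among genes with a group mean of at least 5 TPM. Alternatives were other pseudocounts, filters and scalings, no trend, a replicate block, fits of fewer groups and leaving out each library. Replicate numbers did not pair libraries.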

Additional observations from a re-analysis of the deposited data

Results flagged for a closer look

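The knockout effect on Obox1 differed between growing and non-growing oocytes at P10 by the test of the difference itself: -3.1 on the log2 scale (SE 0.753, limma adjusted p = 0.0287). In growing oocytes the level was lower in both knockout libraries than in both controls, whereas in non-growing oocytes the knockout libraries, 8.929 and 3.259 TPM, lay on both sides of the controls, 6.274 and 5.869 TPM. The call was lost under 11 of 20 alternatives, 2 of which are the same fit.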

How the results depend on the processing

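The numbers of members called kept within 1.5 times their reported values under every alternative except in the difference of knockout effects between GO and NGO, where the 1 called member, Obox1, became 0 with a pseudocount of 0.1 TPM, with voom on recovered reads, with the P10 libraries alone, with these and a replicate block (where 0 of 15197 genes were called), and with only the groups of the comparison, which is the same fit as the P10 libraries alone. Leaving out single libraries gave 0 to 1. Obox1 was kept with the replicate block over all oocytes (adjusted p = 0.0411). The fits of the P10 libraries alone and voom were chosen after seeing the data. Unpassed differences changed sign in few cases: in P5 knockout against control Obox5 ranged from -0.94 to 0.84 as single libraries were left out (0.84 without control replicate 1 and 0.79 without knockout replicate 1), and the difference between P5 and P1 likewise from -0.94 to 0.84, where voom gave 0.27. In P10 NGO Obox1 ranged from -0.73 to 0.49, the latter without knockout replicate 2. For Obox5 in P10 against P5 control NGO, the call was also lost with a pseudocount of 0.1 TPM (adjusted p = 0.07), voom (0.0802) and only the groups of the comparison (0.083). The cause was not tested. Replicate numbers were shared between groups, but same-numbered libraries did not deviate together (r = -0.05 to 0.02 across genes). With the replicate block 3 members were still called in GO knockouts, Obox5 with adjusted p = 0.0139. Where a group is left with 1 library, that library is assumed to vary like the other groups. Depth limits what can be said of Obox3 and Obox6, and 2 libraries a group limit all else.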
